A study of Mus musculus with 6 samples.

Results

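Pax7 and the 4 myogenic regulatory factors Myf5, Myod1, Myog and Myf6 were examined by RNA-seq in cultured mouse muscle stem cells (MuSCs), the resident stem cells of skeletal muscle. The members were taken by gene symbol, and all 5 were found among the 18943 genes of the expression table. All 5 passed the filter on low values (a mean of at least 5 over the libraries), as did 13921 genes in all, which were tested. MuSCs had been purified by flow cytometry from muscle of wild-type C57BL/6 mice aged 8 weeks and were cultured for 5 days. The control culture received DMSO, the solvent, and the others received endothelin-3 (ET-3) or neurotensin (NT), both peptide ligands of G protein-coupled receptors, at 100 nM according to the sample labels and at higher concentrations according to the methods of the study. The study describes its RNA-seq samples as biological and in triplicate, whereas 2 libraries per group were analysed here, and the sample labels do not tie these to separate cultures or animals. P-values measure only the spread between the libraries of a pair, which may be technical.

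PAX7 is a paired-box transcription factor that marks MuSCs and is needed to keep them. MYF5, MYOD1, MYOG and MYF6 (also called MRF4) are basic helix-loop-helix transcription factors that bind E-boxes as dimers with E proteins. In the textbook order, MYF5 and MYOD1 mark committed, dividing myoblasts, MYOG accompanies the exit from the cell cycle and terminal differentiation, and MYF6 is expressed in differentiating and mature fibres.

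The values are read counts that had been scaled by a factor for each library and rounded before deposit, and are called scaled reads here. They summed to between 4214458 and 4600575 per library, which corresponds to about 3628952 to 5396233 reads before scaling. The libraries of a treated pair differed on average by no more than counting noise over all tested genes. The mean chi-square per gene was 0.889 for the ET-3 pair and 0.956 for the NT pair, where repeated sampling of the same RNA gives 1, against 1.46 for the DMSO pair. Fits in which the libraries of a treated pair were averaged to 1 sample are therefore given where they change a call of a member. For other genes they are given only in part, and for the counts of marker lists not at all. Of the 8 MuSC markers, Calcr was listed at 0 to 3 and Chodl at 2 to 7 in the libraries, while the list summed to 6274 to 6748 in DMSO, 6123 to 6285 in ET-3 and 5593 to 5741 in NT. This sum includes Pax7 and Myf5 and covers opposite changes. By the sign of the log2 change, 3 of the 6 tested genes in the list were higher (Pax7, Vcam1 and Sdc4) and 3 lower (Cdh15, Itga7 and Myf5) under each ligand. The change of Myf5 under ET-3 was only -0.08 and did not pass (limma adjusted p = 0.292). Cdh15 was at 1547 and 1746 in DMSO and 436 to 496 in treated libraries, and Sdc4 at 556 and 502 against 715 to 815. Markers of other cell types also moved with the groups. The 6 smooth muscle and pericyte markers summed to 2980 to 3372 in DMSO, 748 to 796 in ET-3 and 868 to 915 in NT, with Myh11 at 0 to 4 and Kcnj8 at 0 to 2 in every library. Of the other 4, Rgs5 was at 117 and 150 in DMSO and 2 to 5 in treated libraries, Abcc9 at 851 and 835 against 0 to 4, Notch3 at 1397 and 1773 against 284 to 409, and Cspg4 at 610 and 612 against 433 to 509. Notch3 is also on the list of stem cell genes linked to PAX7 that is used below. The 5 fibro-adipogenic markers in the table summed to 1624 to 1788 in DMSO, 992 to 1068 in ET-3 and 1086 to 1151 in NT. Most of this sum was Col3a1, at 1420 and 1577 in DMSO and 922 to 1061 in treated libraries. Col1a1 was at 148 and 146 against 2 to 8, and Dcn at 9 and 17 against 0 to 2. By contrast, Pdgfra was at 20 and 30 against 26 to 44, and Ly6a at 27 and 18 against 37 to 52. The 4 endothelial markers in the table summed to 12 to 24 in DMSO, 96 to 104 in ET-3 and 85 to 107 in NT, with Tek at 1 and 2 in DMSO and 42 to 70 in treated libraries. Macrophage markers (3 in the table) summed to 21 to 45 and Schwann cell markers (3 in the table) to 32 to 69 over all libraries. Whether such cells were present, and their part in the results, was not tested.

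Pax7, which marks the stem cell state, was higher under both ligands. It had 857 and 1070 scaled reads in the DMSO libraries, 1754 and 1730 under ET-3, and 1653 and 1599 under NT. All 4 treated libraries lay above both control libraries. Pax7 (ENSMUSG00000028736) lies at chr4:139737062-139833528 on the minus strand of GRCm38 and has 5860 exonic bases. It rose 1.82-fold under ET-3 (log2 fold change 0.86, SE 0.08, 95% interval 0.68 to 1.05, limma adjusted p = 9.75e-06) and 1.70-fold under NT (log2 0.76, SE 0.08, interval 0.58 to 0.95, adjusted p = 2.48e-05). Neither change reached the 2-fold threshold that a call also required. Of all tested genes, 9.15% had a log2 fold change at least as high under ET-3 and 11.9% under NT. In bulk RNA, more cells that express a gene and more RNA per cell cannot be told apart.

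The size of the Pax7 change depended on the control pair. The DMSO libraries differed for Pax7 by far more than counting noise (chi-square 22.4), whereas the ET-3 pair gave 0.147 and the NT pair 1.11. Without DMSO replicate 2 the log2 change under ET-3 was 1.02, which passes the 2-fold threshold, and without DMSO replicate 1 it was 0.70. With treated pairs averaged, the log2 changes were again 0.86 and 0.76, but the limma adjusted p was 0.0848 for ET-3 and 0.102 for NT, so that neither passed.

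**Figure D1:**
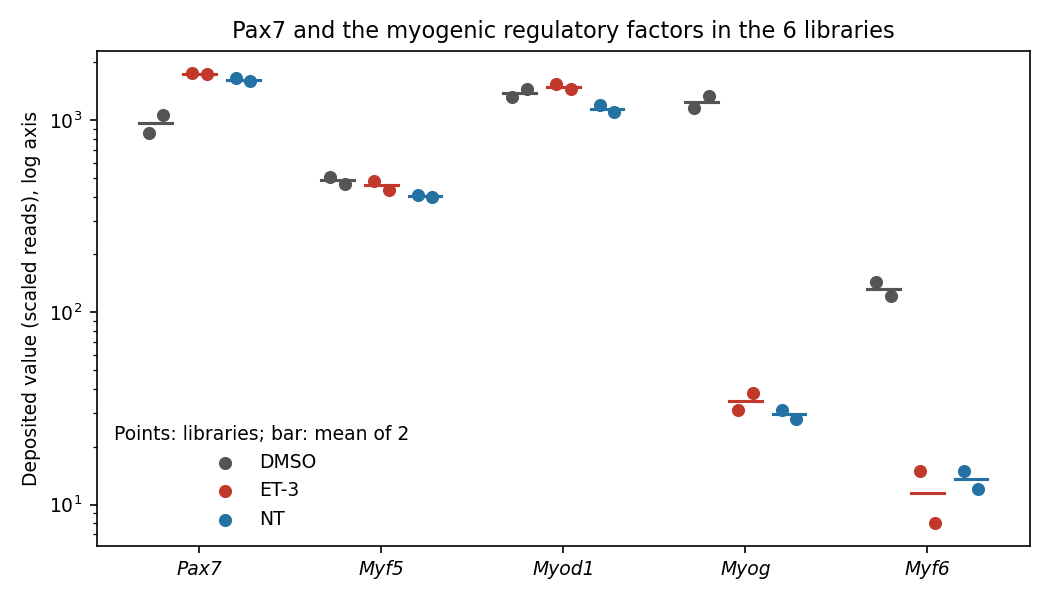
Scaled reads (log axis) of the 5 genes in the 6 libraries, with points for libraries and bars for the mean of each pair. Myog and Myf6 are separated between control and treated libraries, with Myog at 1157 and 1335 in DMSO and 28 to 38 in the treated libraries, while Myf5 and Myod1 stay within a narrow range.

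Myf5 and Myod1, the factors of committed myoblasts, remained expressed in every library and differed little from DMSO. Myf5 (ENSMUSG00000000435, chr10:107482908-107486134, minus strand) had 506 and 466 scaled reads in DMSO, 483 and 434 under ET-3, and 408 and 400 under NT. The ET-3 values overlapped those of DMSO, and both NT values lay below them. The log2 change of Myf5 was -0.08 under ET-3 (interval -0.23 to 0.06, limma adjusted p = 0.292), and under NT it fell by 0.26 on the log2 scale (interval -0.41 to -0.12, adjusted p = 0.00598). The NT call was lost without DMSO replicate 1 (log2 -0.21, adjusted p = 0.0946) and without NT replicate 2 (log2 -0.25, adjusted p = 0.0626), with libraries scaled to their totals (log2 -0.15, adjusted p = 0.0660), and with treated pairs averaged (adjusted p = 0.131).

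Myod1 (ENSMUSG00000009471, chr7:46376474-46379099, plus strand) had 1324 and 1444 scaled reads in DMSO, 1539 and 1449 under ET-3, and 1192 and 1100 under NT. The ET-3 values were just above the control values and the NT values below them. Its log2 change was 0.11 under ET-3 (interval -0.02 to 0.24, limma adjusted p = 0.123) and -0.27 under NT (interval -0.40 to -0.14, adjusted p = 0.00243), and both intervals lay within 2-fold. Scaling to library totals made the ET-3 difference pass (log2 0.20, adjusted p = 0.00670), as did scaling to upper quartiles (log2 0.15, adjusted p = 0.0368). The NT call was lost without DMSO replicate 2 (log2 -0.21, adjusted p = 0.0759) and with treated pairs averaged (adjusted p = 0.129).

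Myod1 was covered more densely than almost any other gene. It had 0.719 reads per exonic base on average over the libraries, against 0.0445 for the median gene, and 1 of 13914 genes had more. Before scaling, its reads ranged from 1260 to 1408, a ratio of 1.12 between the highest and lowest library, whereas the library totals ranged over a ratio of 1.49. Over all genes, fold changes moved with this coverage. With the trend of each library against coverage removed, an alternative added after the data were seen, the log2 change of Myod1 was -0.025 under ET-3 (adjusted p = 0.511) and -0.042 under NT (adjusted p = 0.273). Myf5 had 0.217 reads per exonic base and after the same step differed from DMSO by -0.20 under ET-3 (adjusted p = 0.0170) and -0.24 under NT (adjusted p = 0.00681).

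Myog, the factor of terminal differentiation, fell to a few percent of its control level. Myog (ENSMUSG00000026459, chr1:134289989-134292548, plus strand) had 1157 and 1335 scaled reads in DMSO, 31 and 38 under ET-3, and 31 and 28 under NT. The lowest control value stood far above the highest treated value. The fit gave a 35.2-fold lower level under ET-3 (95% interval 28.4 to 43.6, log2 -5.14, SE 0.14, limma adjusted p = 2.53e-09) and a 40.8-fold lower level under NT (33.0 to 50.6, log2 -5.35, SE 0.14, adjusted p = 2.89e-09). Only 1.47% of tested genes had a log2 fold change as low or lower under ET-3, and 1.21% under NT.

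Myf6, expressed late in myogenesis, fell as well, from the lowest control level of the 5 genes. Myf6 (ENSMUSG00000035923, chr10:107492853-107494737, minus strand) had 143 and 121 scaled reads in DMSO, 15 and 8 under ET-3, and 15 and 12 under NT. Treated and control libraries did not overlap. It was 11.0-fold lower under ET-3 (interval 6.87 to 17.7, log2 -3.47, SE 0.31, limma adjusted p = 5.11e-06) and 9.19-fold lower under NT (interval 5.72 to 14.8, log2 -3.20, SE 0.31, adjusted p = 9.63e-06). The counting error of a single treated library was 23.6% to 37.8% for Myf6 and 16.7% to 19.6% for Myog. These errors cover counting only.

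Of the 5 genes, 2 were therefore called under each ligand with both an adjusted p of at most 0.05 and a 2-fold change, Myog and Myf6, both lower. The same rule called 21.5% of all tested genes for ET-3 (6.62% higher and 14.9% lower) and 20.5% for NT (7.3% higher and 13.2% lower). By adjusted p alone, 3 of 5 passed for ET-3 (background 63.7%) and 5 of 5 for NT (background 62.2%). Both comparisons share the DMSO libraries. Calls of Myog and Myf6 held under all 16 alternative settings, with adjusted p of at most 0.0282.

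**Figure D2:**
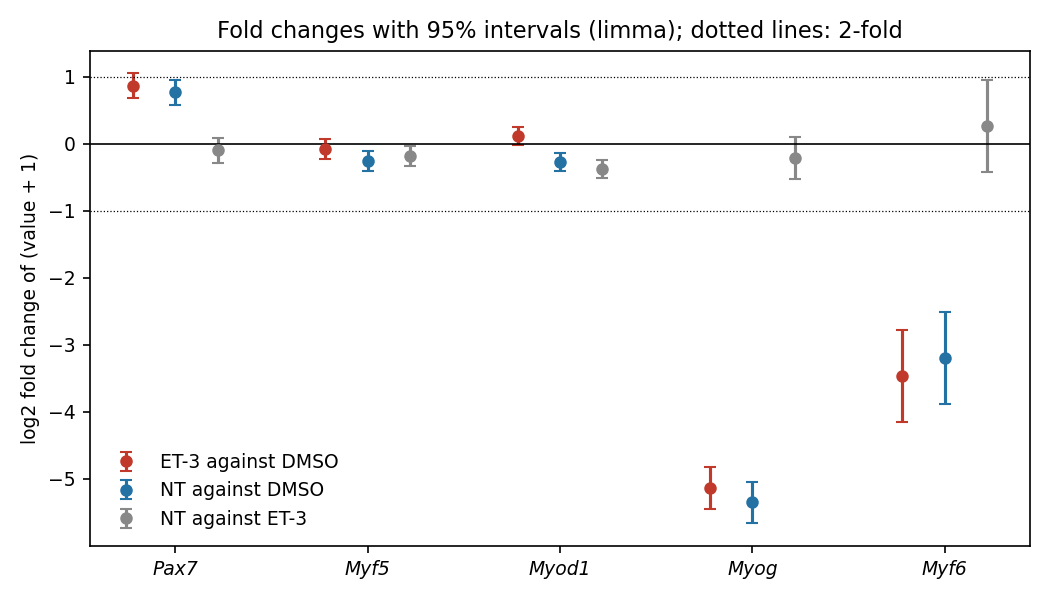
Log2 fold changes of (value + 1) with 95% intervals from limma for each ligand against DMSO and for NT relative to ET-3, with dotted lines at 2-fold. Pax7 lies at 0.86 and 0.76, Myf5 and Myod1 near 0, Myf6 at -3.47 and -3.20 and Myog at -5.14 and -5.35.

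Promoter sequence just upstream of the annotated start is shown for Myog, which fell, and for Myf5, which stayed expressed. RefSeq promoter windows on GRCm38.p6 were matched for Pax7, Myf5 and Myog. Only the bases outside the annotated gene are shown, and the Pax7 window lies within its annotated gene. The Myog stretch is chr1:134289754-134289988 (plus strand) and the Myf5 stretch is chr10:107486135-107486384 (minus strand). Capitals mark an E-box (CANNTG) and a MEF3 motif (TCAGGTTTC), searched on both strands.
Myog: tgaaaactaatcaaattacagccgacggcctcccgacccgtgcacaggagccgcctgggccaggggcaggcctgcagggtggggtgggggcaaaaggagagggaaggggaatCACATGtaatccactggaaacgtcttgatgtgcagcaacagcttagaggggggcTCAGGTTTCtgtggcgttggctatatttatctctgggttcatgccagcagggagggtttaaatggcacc
Myf5: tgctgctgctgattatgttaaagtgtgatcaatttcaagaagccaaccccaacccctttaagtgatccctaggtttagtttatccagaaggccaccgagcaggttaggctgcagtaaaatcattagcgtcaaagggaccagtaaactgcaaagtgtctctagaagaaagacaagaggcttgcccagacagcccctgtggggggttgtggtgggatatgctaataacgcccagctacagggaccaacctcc

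The Myog stretch held 1 E-box, 123 bases before the start, and 1 MEF3 motif, 69 bases before it. The full RefSeq window of Myog holds 2 E-boxes, the other in the bases inside the annotated gene that are not shown. E-boxes are common, since 64.1% of 32851 promoters hold at least 1 in a window of the same length, whereas 0.365% hold the MEF3 motif. The Myf5 stretch held 0 E-boxes and 0 MEF3 motifs, and neither stretch held the MEF2 consensus as searched. That search took only full matches to YTAWWWWTAR, where Y is C or T, W is A or T and R is A or G. The Myog stretch holds ctatatttat, which differs from this pattern only in its last base. Of promoter windows as long as that of Myf5, 66.2% hold an E-box, 0.387% the MEF3 motif and 2.92% the MEF2 consensus. The motifs do not overlap each other, and a match is a description of these letters rather than of binding.

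Compared per kilobase of exon, the order of the 5 genes changed between control and treated cells. In DMSO, Myog had 833 ± 84.2 scaled reads per kb (SD, n = 2) and Myod1 744 ± 45.6, and their libraries overlapped. Myf5 followed at 233 ± 13.6, Pax7 at 164 ± 25.7 and Myf6 at 105 ± 12.3. Under ET-3 the order was Myod1 at 803 ± 34.2, Pax7 at 297 ± 2.90, Myf5 at 220 ± 16.6, Myog at 23.1 ± 3.31 and Myf6 at 9.11 ± 3.92. Under NT it was the same, with Myod1 at 616 ± 35.0, Pax7 at 277 ± 6.52, Myf5 at 194 ± 2.72, Myog at 19.7 ± 1.42 and Myf6 at 10.7 ± 1.68. Pax7 thus stood below Myf5 in the control cells and above it in treated cells. The order between genes rests on the length of all annotated exons, which for Pax7 come from 2 transcripts. Which of these were expressed was not tested.

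The 4 myogenic regulatory factors together summed to 1842 and 1988 scaled reads per kb in DMSO, 1091 and 1019 under ET-3, and 869 and 811 under NT. Myog made up 42.0% and 44.9% of this sum in the DMSO libraries, 1.90% and 2.50% under ET-3, and 2.39% and 2.31% under NT. The share of Myod1 was 38.6% and 39.0% in DMSO and 72.9% to 76.4% in the 4 treated libraries. Myf5 made up 13.2% and 11.3% in DMSO and 20.5% to 23.7% in treated libraries, and Myf6 6.15% and 4.82% against 0.622% to 1.37%.

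**Figure D3:**
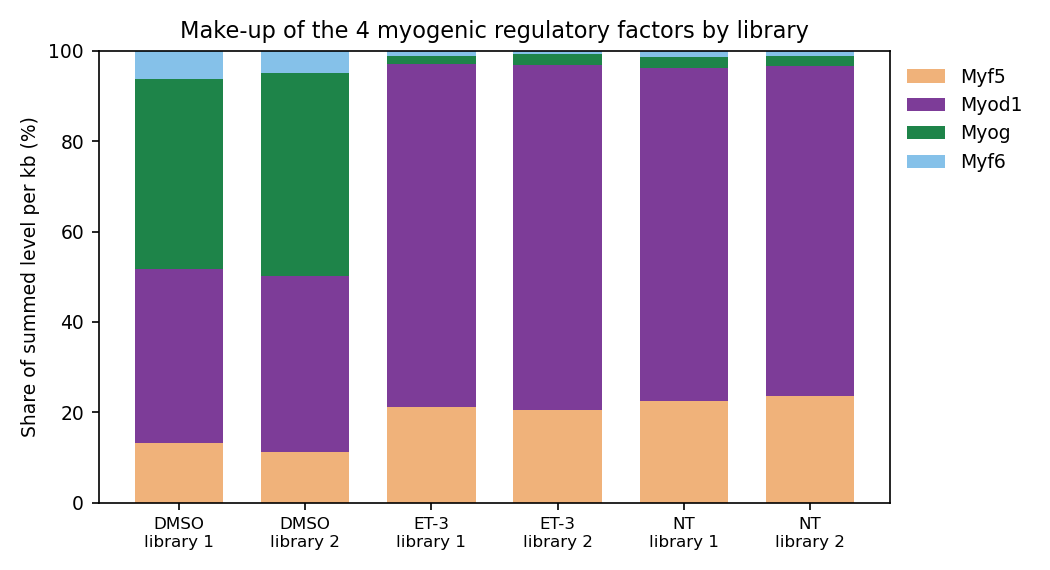
Share of each myogenic regulatory factor in the summed level per kb of all 4, for each library in percent. Myog takes 42.0% and 44.9% of the DMSO bars and at most 2.50% of any treated bar, where Myod1 takes at least 72.9%.

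Ratios of members within a library do not depend on how libraries were scaled. The ratio of Pax7 to Myod1, each as value + 1, was 0.648 and 0.741 in DMSO, 1.14 and 1.19 under ET-3, and 1.39 and 1.45 under NT. The ratio of Myod1 to Myog was 1.14 and 1.08 in DMSO, 48.1 and 37.2 under ET-3, and 37.3 and 38.0 under NT. The ratio of Myf6 to Myog was 0.124 and 0.0913 in DMSO, 0.5 and 0.231 under ET-3, and 0.5 and 0.448 under NT and was higher in all 4 treated libraries. With 2 libraries against 2, an exact two-sided permutation test cannot give a p below 0.333, and these 3 ratios reached that value under both ligands. The ratio of Myf5 to Myod1 stayed between 0.3 and 0.383 in all libraries. It was lower in both ET-3 libraries than in both DMSO libraries, so that the same permutation test gave 0.333 there, but not under NT.

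Between the ligands the members differed little. No member passed the 2-fold rule for NT against ET-3 (background 0.079%), and 1 of 5 passed by adjusted p alone (background 2.69%). That gene was Myod1, lower under NT by 0.38 on the log2 scale (log2 fold change -0.38, SE 0.06, interval -0.51 to -0.25, limma adjusted p = 0.0379), with both NT libraries below both ET-3 libraries. The differences were -0.10 for Pax7 (interval -0.29 to 0.09), -0.18 for Myf5 (-0.33 to -0.03), -0.21 for Myog (-0.52 to 0.10) and 0.27 for Myf6 (-0.42 to 0.95), with adjusted p of 0.562, 0.172, 0.432 and 0.687. The interval for Myf6 is wide and leaves room for almost a doubling.

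Differences between the ligands moved with coverage over all genes. The median log2 fold change of NT against ET-3 was 0.15 in the tenth of genes with the fewest reads per exonic base and -0.28 in the 140 genes above the 99th percentile, of which 99.3% were lower under NT. With this trend removed the Myod1 difference was -0.017 (limma adjusted p = 0.881). With each library left out in turn, the Myod1 difference kept its size (log2 -0.44 to -0.32), but its adjusted p rose to between 0.160 and 0.459.

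**Figure D4:**
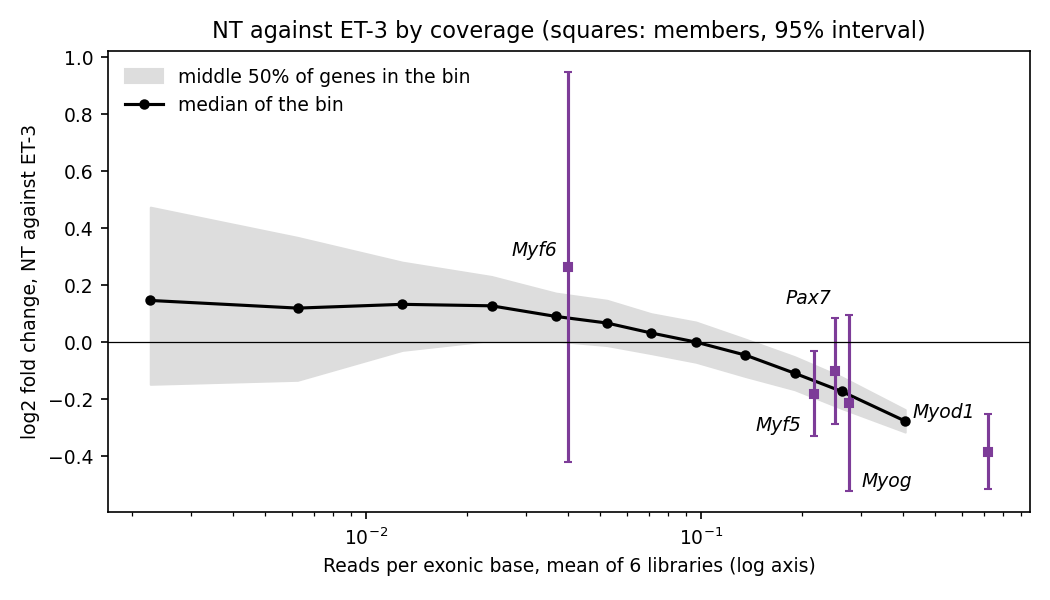
Log2 fold change of NT against ET-3 against mean reads per exonic base (log axis), with the median (black) and middle 50% (grey) of genes in bins of coverage and the members as squares with 95% intervals. The bin medians fall from 0.15 to -0.28, and Myod1, at 0.719 reads per base, lies at -0.38.

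Genes with the profile most like each member were sought among 10208 genes with a mean of at least 50, by the root mean square difference of centred log2 values over the 6 libraries. For Pax7 the nearest were Cdc45, a DNA replication factor (difference 0.0388), Casp8 (0.0488) and Gja1, which encodes connexin 43 (0.0497). Cdc45 had 206 and 237 scaled reads in DMSO, 396 and 399 under ET-3, and 383 and 377 under NT. The profile of Pax7 was a common one, with 103 genes within 0.1. A list of 10 proliferation genes moved the same way, with sums of 6940 to 7345 in DMSO, 11074 to 11172 in ET-3 and 10141 to 10672 in NT. All 10 rose by adjusted p alone under each ligand (background 30.6% and 29.7% higher), with medians of 0.68 and 0.59, and 1 rose at least 2-fold under ET-3. More genes lay within 0.1 of Myf5 (731, led by Fam162a, Mrpl57 and Ndufs8) and of Myod1 (340, led by Lgals3, Vim and Eef2). Vim encodes the intermediate filament vimentin and Eef2 a translation elongation factor. Myog and Myf6 had 0 genes within 0.1. The nearest to Myog were Nrap, a protein of myofibril assembly (0.120), Gprc5c (0.123) and Itgb1bp2, the muscle protein melusin (0.167). Nrap had 1555 and 1506 scaled reads in DMSO, 36 and 43 under ET-3, and 32 and 30 under NT. The nearest to Myf6 were Tgfb2 (0.184), the collagen gene Col1a2 (0.213) and Clstn2 (0.228).

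The annotated neighbours of the members were also followed. Within 100 kb of the 5 gene bodies lie 23 other annotated genes, 12 of which were tested. Of these, 9 were called lower and 0 higher under each ligand, against 14.9% (ET-3) and 13.2% (NT) of all tested genes called lower. Neighbours share a chromosomal region with a member and were not tested as a set. Ppfia4, 4234 bp from Myog, had 1497 and 1464 scaled reads in DMSO, 18 and 21 under ET-3, and 14 and 25 under NT (log2 changes of -6.18 and -6.23). Mybph, a myosin-binding protein gene 88756 bp from Myog, had 1198 and 1344 in DMSO and 0 to 5 in the treated libraries. Tmem183a, 53548 bp from Myog, stayed at 574 to 609 in all 6 libraries. Near Myod1, Otog at 65039 bp had 758 and 627 scaled reads in DMSO, 129 and 146 under ET-3, and 169 and 154 under NT (log2 -2.32 and -2.09). Near Pax7, which rose, Aldh4a1 at 87371 bp changed by -1.11 and -1.29. Myf5 and Myf6 are themselves neighbours, 6718 bp apart, and the first stayed within a narrow range while the second fell. No annotated gene overlaps any of the 5.

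Genes known to act with the factors were followed as lists drawn up from general knowledge, but with earlier results of these data known. Their counts are therefore descriptions that do not stand apart from these data. Of 20 E proteins and inhibitors of basic helix-loop-helix factors, 17 were tested, and 3 were called lower and 0 higher under each ligand, a share near the background of 14.9% (ET-3) and 13.2% (NT) called lower. Their medians were -0.38 and -0.44 on the log2 scale, against -0.01 over all tested genes in both comparisons. Among the E proteins, the dimer partners of the myogenic factors, Tcf3 rose (log2 0.52 and 0.41) and Tcf4 fell (-0.81 and -0.71), both past the adjusted p but short of 2-fold. Tcf12 changed by -0.38 and -0.45. Among the inhibitors, Id2 had 411 and 418 scaled reads in DMSO, 695 and 675 under ET-3, and 570 and 522 under NT (0.72 and 0.40). Id1 differed by 0.22 and -0.02 and Id3 by 0.09 and -0.22. The direction of Id1 under NT and of Id3 under ET-3, neither past the threshold, turned under other settings. The changes of Id1 under ET-3 and of Id3 under NT passed by adjusted p, but not with treated pairs averaged. Mdfi differed by -0.58 and -0.54, with 72 and 93 scaled reads in DMSO and 48 to 62 in treated libraries, and both calls were lost with treated pairs averaged (limma adjusted p = 0.192 and 0.207). The list's largest changes were those of the Notch effector genes Heyl, with 382 and 566 in DMSO and 4 to 9 in treated libraries, and Hey1, with 279 and 353 in DMSO and 54 to 77.

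Of 20 upstream and cooperating factors, 19 were in the table and tested, with 1 called higher and 5 lower under each ligand (medians -0.38 and -0.49). Over all tested genes 6.62% were called higher and 14.9% lower for ET-3, and 7.3% and 13.2% for NT. Mef2c, a cofactor of MYOD1 and MYOG in muscle gene activation, had 1927 and 1930 scaled reads in DMSO, 8 and 10 under ET-3, and 12 and 11 under NT (log2 -7.60 and -7.27). Sox6 changed by -4.87 and -4.12. Pax3, the paralog of Pax7, was low throughout, with 22 and 21 in DMSO, 25 and 38 under ET-3, and 38 and 43 under NT. Its log2 difference was 0.50 under ET-3 (limma adjusted p = 0.115) and 0.88 under NT (adjusted p = 0.0130).

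Most target genes of MYOD1 and MYOG fell. All 26 were tested, and 22 were called lower under ET-3 (background 14.9%) and 23 under NT (background 13.2%) and 0 higher, with medians of -4.11 and -4.06. Chrna1, an acetylcholine receptor subunit named after its values were seen, did not pass under ET-3 (log2 -0.12, limma adjusted p = 0.0815). The fusion genes Mymk and Mymx were among them. Mymk had 956 and 1043 scaled reads in DMSO, 36 and 44 under ET-3, and 47 and 40 under NT. Mymx had 403 and 441 in DMSO, 0 and 0 under ET-3, and 6 and 2 under NT, which made it at least 123-fold lower under ET-3 against a floor of 3 reads per library. Ckm, muscle creatine kinase, had 545 and 520 in DMSO and 0 or 1 in treated libraries, at least 155-fold lower under ET-3 on the same floor. Casq2, a calcium-binding protein, had 1297 and 1409 in DMSO and 1 to 4 in treated libraries. The cell cycle inhibitors in the list fell less evenly, with log2 changes of -0.94 and -1.23 for Cdkn1a and -5.23 and -4.28 for Cdkn1c. Myod1, one of the activators of this list, differed by 0.11 and -0.27.

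Stem cell genes linked to PAX7 did not follow Pax7 as a group. Of 20 genes, 17 were tested, and 2 were called higher and 8 lower under ET-3, and 2 higher and 5 lower under NT, with medians of -0.74 and -0.42. The background was 6.62% higher and 14.9% lower for ET-3, and 7.3% and 13.2% for NT. Cd34, a surface protein of quiescent MuSCs, had 5 and 1 scaled reads in DMSO, 330 and 264 under ET-3, and 286 and 318 under NT (log2 6.42 and 6.45). These folds rest on the 5 and 1 scaled reads in DMSO and depend on the pseudocount. Sox8 had 118 and 121 in DMSO and 18 to 27 in treated libraries (-2.53 and -2.22). Calcr, the calcitonin receptor of quiescent MuSCs, was too low to be tested. Of 16 regulators of the factors' mRNA or protein, all tested, 2 were called lower under each ligand and 0 higher, near the background of 14.9% (ET-3) and 13.2% (NT) called lower, and the medians were 0.05 and 0.03. The 2 with the largest changes were Fbxo32, a ubiquitin ligase known to act on MYOD1 (-1.19 and -1.13), and Zfp36l1, an mRNA decay factor (-1.12 and -1.03).

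**Figure D5:**
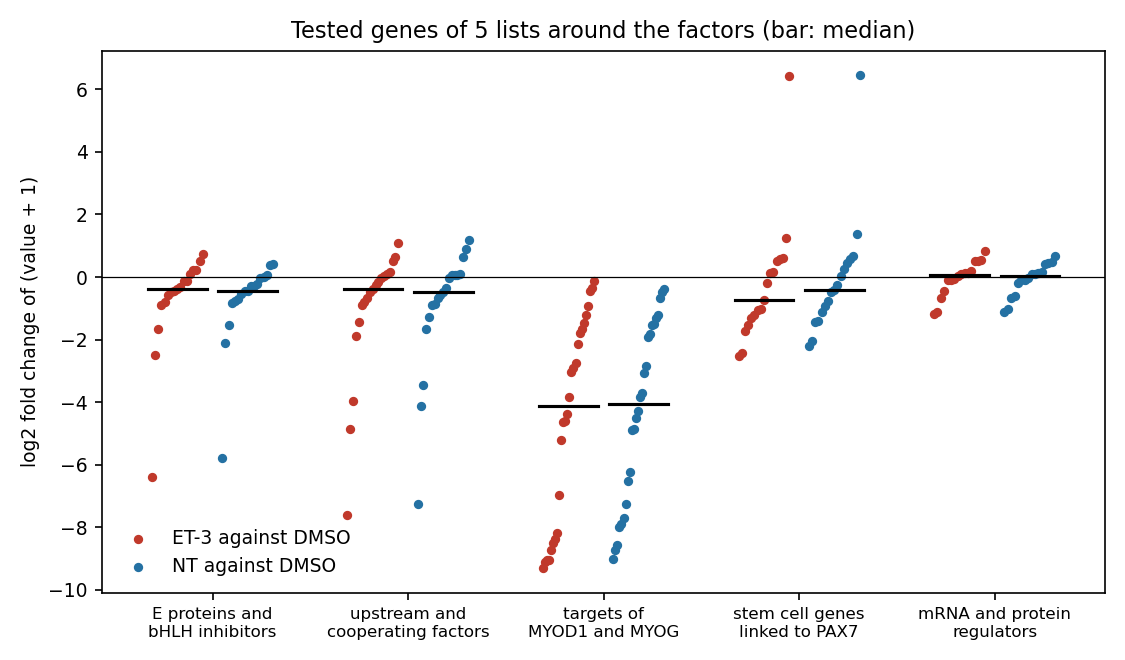
Log2 fold changes of the tested genes of 5 lists under ET-3 and NT against DMSO, sorted within each list, with a bar at the median. The targets of MYOD1 and MYOG have medians of -4.11 and -4.06, and the medians of the other lists lie between -0.74 and 0.05.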

How the data were processed

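The study deposited 1 table for 6 libraries of cultured MuSCs. The deposited values are a read signal, whole numbers made from read counts by a scaling factor for each library and rounding. In 3 libraries, 25, 32 and 17 of the values examined cannot arise from a read count, and 0 genes lay at them. Fitted factors ran from 0.781 to 1.1915 (geometric mean 0.997). The scaling is not described in the sources used here. Per the labels, the processing notes name FastQC, Trimmomatic 0.38, STAR 2.7.7a, featureCounts 1.6.5, DESeq2 1.30.0 and mm10. The methods of the study name another trimmer, other versions and another library kit, so that strandedness is unsure, and state that the authors counted exonic reads and left out those of several genes or regions.

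Because the values were scaled, limma 3.58.1 (R 4.3.3, lmFit and eBayes with trend) was fitted to log2(value + 1) of all 6 libraries. Genes with a mean under 5 (5022) were left out, and Benjamini-Hochberg adjustment ran over 13921 genes in each of 3 comparisons. Fold changes are on the log2(value + 1) scale, which understates those of low genes. Genes were called at an adjusted p of 0.05 or less and, where stated, a 2-fold change. Positions and exonic lengths came from GENCODE (18920 genes matched), promoters from RefSeq.

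Genes named are the members, the 3 nearest profiles of each, the 2 largest changes and textbook genes of each list, and neighbours within 100 kb. Members and lists were chosen with earlier results of these data known. Alternatives covered scaling, pseudocount, filter, averaging of treated pairs, a replicate block, voom weights, fits of 2 groups, left-out libraries and removal of the coverage trend. Listed genes such as Meox2 and Tcf21 were not analysed here. Among the textbook genes of these lists, 1 that was tested is not reported here.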

Additional observations from a re-analysis of the deposited data

Results flagged for a closer look

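Myod1 differed between the ligands. Its log2 fold change of NT against ET-3 was -0.38 (limma adjusted p = 0.0379), with 1539 and 1449 scaled reads under ET-3 and 1192 and 1100 under NT, so that both NT libraries were lower. The result drew attention because the test of the difference itself passed by adjusted p. Reads per exonic base were among the highest of all genes for Myod1 (0.719), and the difference was -0.017 with the trend against coverage removed.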

How the results depend on the processing

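Each of 113 results was recomputed, which gave 1728 alternative values, and 1621 of them were taken as unchanged. For genes, this meant the same direction and the same side of the adjusted p threshold, whatever the fold threshold. Some settings cannot move a gene's log2 change, so that its direction was fixed and only its error could differ. These were no filter, the replicate block, fits of 2 groups and leaving out a library of the group not compared. Counts had to stay within 1.5 times, and log2 ratios had to move by less than their SD between libraries, whatever their sign. With treated pairs averaged, 2 members passed by adjusted p alone for NT, in place of 5. That count was 4 with library totals and with the coverage trend removed, and 4 to 5 over the left-out libraries. For NT against ET-3 that count was 0 in place of 1 with no filter on low values, treated pairs averaged, 2 groups alone, the coverage trend removed, and each library left out. Without DMSO replicate 2, 3 members were called at 2-fold for ET-3. The ratio of Myod1 to Myog under NT moved from 5.08 to 4.91 (log2) with pseudocount 5. The difference of Myf5 to Myod1 under NT (log2 0.0070) turned to -0.037 without NT replicate 2 and to -0.115 without DMSO replicate 2, within that SD. Directions turned for these log2 changes. With library totals, Myf5 under ET-3 was 0.0043 and Id1 under NT 0.10. The median log2 change of all tested genes was then 0.08 (ET-3) and 0.10 (NT), in place of -0.01 in both comparisons. With upper quartiles Id1 under NT was 0.026. With libraries left out in turn, Id3 under ET-3 ranged from -0.015 (without DMSO replicate 1) to 0.20, and Id1 under NT from -0.090 (without DMSO replicate 1) to 0.057 (without DMSO replicate 2), and was 0.022 without NT replicate 2. With the coverage trend removed, Myod1 (-0.025) and Id3 (-0.032) under ET-3, Id1 under NT (0.13, limma adjusted p = 0.0425) and Pax7 in NT against ET-3 (0.070) turned. Myf6 in NT against ET-3 ranged from -0.15 (without ET-3 replicate 2) to 0.68 (without ET-3 replicate 1). A lone library is assumed to vary like the other groups. The cause was not tested. Depth limits Myf6 and Myog in treated libraries most.

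Deviations of same-numbered libraries correlated at -0.01, -0.07 and -0.02 over genes. Since treated pairs differed on average by no more than counting noise, this cannot tell whether the numbers pair the libraries. With the replicate number as a block, 0 members passed by adjusted p for NT against ET-3, and the counts against DMSO were 3 for ET-3 and 5 for NT.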
